A study of Mus musculus with 3 samples.

Results

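Car1 Fabp2 dominant colonocytes are absorptive cells of the mouse colon in which transcripts of Car1 and Fabp2 together were at least as many as those of 6 genes of mature surface colonocytes. They were found in 3 droplet single-cell RNA libraries, where barcodes mark cells and molecular identifiers (UMIs) tell transcript molecules apart. The members were chosen by measured values of these same libraries, the UMI counts of the rule's genes. A barcode belonged to the group if it had at least 300 genes, at most 25% mitochondrial UMIs and at least 2% of its UMIs from 11 colonocyte genes (Slc26a3, Car1, Car4, Aqp8, Krt20, Saa1, Fabp2, Muc3, Lypd8, Clca4a and Clca4b). It also had under 2% from 7 goblet cell genes (Muc2, Tff3, Clca1, Fcgbp, Zg16, Agr2 and Spink4), under 5 UMIs from Cd79a, Cd79b, Ms4a1 and Cd3e, and Car1 plus Fabp2 UMIs at least equal to those of Aqp8, Slc26a3, Clca4a, Clca4b, Muc3 and Krt20. This last clause is called dominance here. Of 21449 barcodes, 409 met the rule: 296 in the BT mutant library, 29 in the BT WT library and 84 in the PBS library. The 3787 barcodes that met every clause except dominance are called Aqp8-side colonocytes and serve as the neighbouring class.

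The study set germ-free mice colonized with a mutant of BT (BT mutant) and germ-free mice colonized with its wild type (BT WT) against germ-free mice that received PBS, phosphate-buffered saline. All groups share the germ-free origin of the animals and the colon as tissue. The labels do not spell out BT, name the mutation, or give the age, sex, strain or number of the mice or the time since colonization. Each group is 1 library, so there were no replicates, no difference between groups could be set against a spread between animals, and no test between groups was run. Intervals in brackets are 95% counting intervals (exact Clopper-Pearson for shares, exact conditional binomial for ratios of levels), which cover counting error only and treat UMIs as independent molecules. The libraries held 54943483 UMIs in BT mutant, 55436776 in BT WT and 42003444 in PBS, and the members' summed depth was 5423275 UMIs in BT mutant, 564537 in BT WT and 1265463 in PBS.

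Colonocytes are the absorptive cells of the large intestine. They are born in the crypts, move up toward the surface and are shed there, and on the way they exchange sodium and chloride, recover water, burn short-chain fatty acids and face the gut's microbes and drugs. Car1 encodes a cytosolic carbonic anhydrase that turns carbon dioxide and water into bicarbonate and protons, the ions that surface exchangers swap for sodium and chloride. Fabp2 encodes the intestinal fatty acid-binding protein, a carrier of long-chain fatty acids in the cytosol of absorptive cells that is best known from the small intestine. Lypd8 encodes a membrane-anchored protein of colonocytes that binds flagella and keeps motile bacteria from the epithelium, and Krt19 a keratin of simple epithelia. On the other side of the dominance clause, Aqp8 is a water channel, Slc26a3 the chloride-bicarbonate exchanger of the surface, Clca4a and Clca4b are calcium-activated chloride channel regulators, Muc3 is a membrane-bound mucin and Krt20 a keratin of differentiated cells.

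The files place Car1 (ENSMUSG00000027556) on the reverse strand of chr3:14766216-14808368 and Fabp2 (ENSMUSG00000023057) on the forward strand of chr3:122895072-122899506, both protein-coding genes of GRCm38. Lypd8 (ENSMUSG00000013643) lies on the forward strand of chr11:58379043-58390728 and Krt19 (ENSMUSG00000020911) on the reverse strand of chr11:100140810-100148665. Promoter windows of 250 bases before to 50 bases after the start were taken from RefSeq on GRCm38.p6, where 5 of 7 genes looked up were matched; Car1 and Krt19 were not. Shown are Fabp2 and Aqp8, which stand on either side of the dominance clause, and Gsta1, the gene with the lowest ratio of BT WT over PBS among those named with UMIs in all 3 libraries. The windows are chr3:122894822-122895121 for Fabp2, chr7:123462044-123462343 for Aqp8 and chr9:78230419-78230718 for Gsta1, all on the forward strand.
Fabp2: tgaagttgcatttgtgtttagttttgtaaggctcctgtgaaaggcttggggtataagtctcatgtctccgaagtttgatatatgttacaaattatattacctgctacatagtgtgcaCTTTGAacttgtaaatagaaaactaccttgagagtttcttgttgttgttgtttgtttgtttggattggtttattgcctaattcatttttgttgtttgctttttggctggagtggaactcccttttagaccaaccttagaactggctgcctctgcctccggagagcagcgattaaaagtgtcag
Aqp8: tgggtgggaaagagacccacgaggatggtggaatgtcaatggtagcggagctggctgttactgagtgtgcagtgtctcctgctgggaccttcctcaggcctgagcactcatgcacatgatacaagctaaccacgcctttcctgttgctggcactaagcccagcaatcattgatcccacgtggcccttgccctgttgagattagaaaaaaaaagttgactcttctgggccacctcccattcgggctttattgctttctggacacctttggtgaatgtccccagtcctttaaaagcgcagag
Gsta1: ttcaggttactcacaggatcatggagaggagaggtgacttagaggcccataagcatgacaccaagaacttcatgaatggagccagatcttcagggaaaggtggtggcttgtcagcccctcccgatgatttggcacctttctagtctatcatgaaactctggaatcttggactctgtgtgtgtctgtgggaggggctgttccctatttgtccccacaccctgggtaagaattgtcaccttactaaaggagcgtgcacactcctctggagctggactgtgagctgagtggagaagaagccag
The capitals mark the 1 match found in these 3 windows, TCAAAG read on the reverse strand, at base 118 of the Fabp2 window. TCAAAG is the junction of the direct repeats bound by nuclear receptors such as Hnf4a, and 16.0% of 32851 promoter windows of the same length held it on either strand. The GATA letters AGATAA (11.2% of windows), the antioxidant response element core TGACNNNGC (12.4%) and the TATA letters TATAAA (13.6%) were searched on both strands and were not in any of the 3 windows. A match describes letters only, and the lack of one says nothing of a factor.

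The 2 genes that name the cells were unequal partners. Car1 was detected in nearly every member of all 3 libraries, while Fabp2 was carried mainly by the BT mutant members. Summed Car1 was 9284 counts per 1000000 UMIs (CPM) in BT mutant members, 5846 CPM in BT WT members and 10263 CPM in PBS members. Summed Fabp2 was 4060 CPM in BT mutant members, 1010 CPM in BT WT members and 789 CPM in PBS members. Both genes chose the cells, so these levels are a description. No Fabp2 UMI was found in 8 of 296 BT mutant members (2.70%), 8 of 29 BT WT members (27.6%) and 39 of 84 PBS members (46.4%). After each cell was thinned to 500 UMIs, Fabp2 was seen in 78.4% (73.2 to 82.9) of BT mutant members, 31.0% (15.3 to 50.8) of BT WT members and 28.6% (19.2 to 39.5) of PBS members. The higher share in BT mutant was not particular to the members. Among Aqp8-side colonocytes the thinned share was 18.8% in BT mutant, 2.80% in BT WT and 10.1% in PBS. Barcodes with at least 5 UMIs from Cd79a, Cd79b, Ms4a1 and Cd3e and under 2% from colonocyte genes are called lymphocyte barcodes. In them the thinned share was 4.01% in BT mutant, 1.02% in BT WT and 1.13% in PBS. No cell was too shallow for the thinning. They serve as a rough measure of free RNA only, since no clause kept out goblet cells or mixed barcodes. In PBS the deepest of them held 124383 UMIs, against a median of 3628. Fabp2 UMIs outnumbered Car1 UMIs in 43 BT mutant members, 2 BT WT members and 6 PBS members.

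The other 2 markers behaved differently from each other. Lypd8, which the rule counted among its colonocyte genes, had 9643 CPM in BT mutant members, 11524 CPM in BT WT members and 12864 CPM in PBS members, against 9769, 7916 and 15838 CPM in the Aqp8-side colonocytes of BT mutant, BT WT and PBS, so it did not set the members apart. Krt19, which no clause used, had 4540 CPM in BT mutant members, 3312 CPM in BT WT members and 1802 CPM in PBS members. Its Aqp8-side levels were 1855, 1181 and 1405 CPM in BT mutant, BT WT and PBS, so the surplus in PBS members was small. Among members with at least 1000 genes (216 BT mutant, 19 BT WT and 32 PBS cells), the median Krt19 level was 4503 CPM in BT mutant (1255 to 10636), 2642 CPM in BT WT (185 to 6274) and 1404 CPM in PBS (618 to 6814). The cells of the 3 libraries overlapped in Krt19, with most BT mutant cells above most PBS cells. Median Fabp2 in the same cells was 3260 CPM in BT mutant, 355 CPM in BT WT and 240 CPM in PBS. Epcam, an adhesion protein of all epithelial cells, was found in each of these deep cells, with medians of 2916 CPM in BT mutant, 2448 CPM in BT WT and 2315 CPM in PBS.

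**Figure D1:**
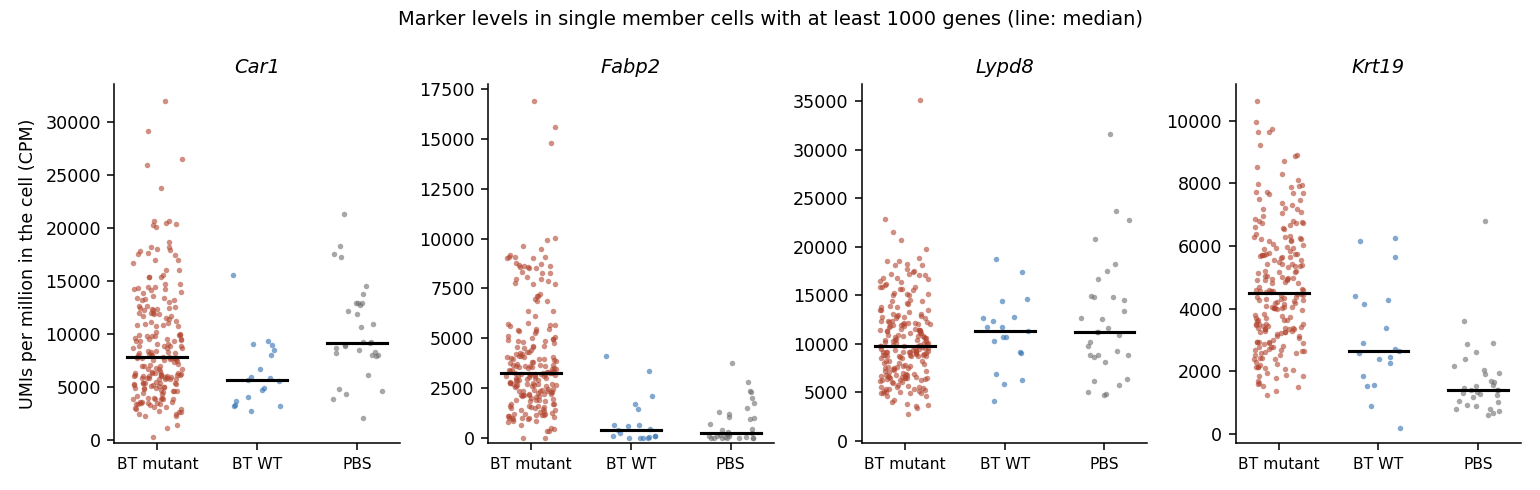
Level of Car1, Fabp2, Lypd8 and Krt19 (CPM within the cell, linear axes) in each member with at least 1000 genes; a point is 1 cell and a line the median of 216 BT mutant, 19 BT WT and 32 PBS cells. Fabp2 medians are 3260, 355 and 240 CPM in BT mutant, BT WT and PBS, and Lypd8 spans a like range in all 3 libraries.

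Members made up 17.2% of colonocyte barcodes in BT mutant (296 of 1720; 15.5 to 19.1), 1.54% in BT WT (29 of 1887; 1.03 to 2.20) and 14.3% in PBS (84 of 589; 11.5 to 17.3). The BT WT share was the lowest of the 3 libraries. The intervals count cells of 1 library each and do not test a difference between groups, and the Car1 and Fabp2 counts that the rule used set the share. Whether the shallow PBS members, with a median of 1104.5 UMIs, are intact cells, damaged cells or droplets with free RNA cannot be told apart, which limits what the PBS share means. Mitochondrial content moved with the share. Members had a median of 9.79% mitochondrial UMIs in BT mutant, 12.2% in BT WT and 10.0% in PBS, against 18.2%, 18.2% and 14.0% in the Aqp8-side colonocytes of the same libraries. With the mitochondrial limit set to 10%, members were 52.4% of colonocytes in BT mutant (150 of 286), 9.35% in BT WT (13 of 139) and 20.5% in PBS (42 of 205). BT WT kept the lowest share, and PBS then stood well under BT mutant. The part of mitochondrial content in the share was not tested.

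Depth also differed between the libraries' members. The median member held 16340 UMIs in BT mutant, 13268 in BT WT and 1104.5 in PBS, against 3933, 4292 and 6841 UMIs for the median Aqp8-side colonocyte of BT mutant, BT WT and PBS. PBS members fell into a deep set and a shallow one: 32 of 84 had at least 1000 genes, and these gave 96.5% of the summed UMIs. In BT WT members, 10 cells gave 77.0% of the UMIs and 1 cell 13.7%; in PBS members 10 cells gave 55.1%, and in BT mutant members 12.6%. Dominance rests on few UMIs in shallow cells. In PBS the median member had 6 Car1, 1 Fabp2 and 4 surface-gene UMIs, against 96, 37.5 and 68.5 in BT mutant and 75, 2 and 64 in BT WT. Members with equal counts on both sides numbered 11 in BT mutant, 3 in BT WT and 17 in PBS. Counting only members with at least 10 Car1 plus Fabp2 UMIs, among colonocytes with at least 10 UMIs of the clause's genes, gave a PBS share of 9.97%; this setting was chosen after the data were seen.

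**Figure D2:**
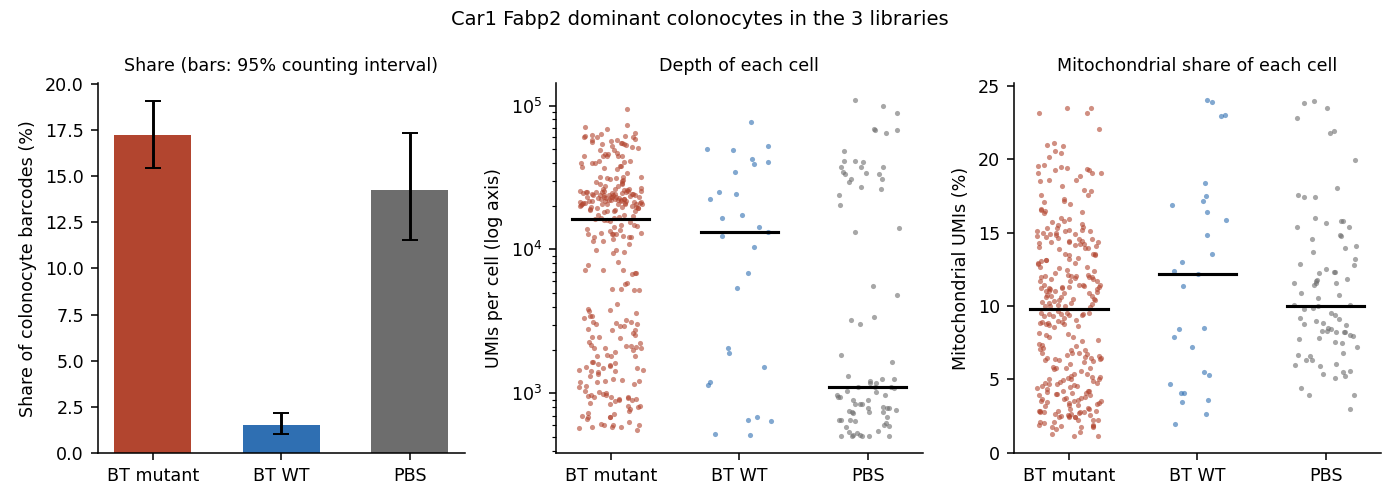
Left, members as a percentage of colonocyte barcodes with 95% counting intervals; middle, UMIs per member cell on a log axis; right, percentage of mitochondrial UMIs per member cell, with points for cells and lines for medians. The share is 17.2% in BT mutant, 1.54% in BT WT and 14.3% in PBS, and most PBS members lie near 1000 UMIs with a separate deep set.

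At the edge of the dominance clause, the 39 BT mutant members with a Car1 plus Fabp2 share of 0.50 to 0.55 of the counted UMIs had 4912 CPM of Car1 and 2423 CPM of Fabp2, and the 32 cells just outside, at 0.45 to under 0.50, had 3910 and 3030 CPM. In BT WT, 9 cells just inside had 4250 CPM of Car1 and 1138 CPM of Fabp2, and 10 just outside had 4092 and 794 CPM. In PBS, 23 cells lay just inside, with 7498 CPM of Car1, and 3 just outside, with 2365 CPM. The 23 cells had a median of 939 UMIs. Equal counts on both sides fall just inside, so ties of few UMIs add to that band. PBS had 17 members with equal counts, 1 of them at 0 on both sides and so in neither band.

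Of the members, 133 of 296 in BT mutant, 16 of 29 in BT WT and 31 of 84 in PBS had no UMI of 6 lists of other cell lineages, so many members carried at least 1 such UMI. The summed level of 10 B cell genes was 6.82 CPM in BT mutant members, 5.31 CPM in BT WT members and 18.2 CPM in PBS members, against 5460, 4889 and 3671 CPM in the lymphocyte barcodes of BT mutant, BT WT and PBS, and of 10 T cell genes 0.922, 0 and 11.9 CPM in the members; the rule limited 4 lymphocyte genes. Fibroblast genes (8 genes) reached 120 CPM in BT mutant members, with none of the 8 at 0, against 12.4 CPM in BT WT members and 34.8 CPM in PBS members. In the BT mutant, 320 CPM of Dcn, a fibroblast proteoglycan, stood in the most dominant members, and its UMIs came largely from 2 cells (242 and 130 of 503). Fat cell genes (8 genes) summed to 20.5 CPM in BT mutant members, 19.5 CPM in BT WT members and 149 CPM in PBS members, where none was at 0, against 110, 16.6 and 1643 CPM in lymphocyte barcodes of BT mutant, BT WT and PBS. Goblet cell genes, limited by the rule, summed to 145 CPM in BT mutant members, 739 CPM in BT WT members and 556 CPM in PBS members, and 160 of 193 Muc2 UMIs in BT WT members came from 1 cell. Their part in the differences below was not tested. Of the members, 0 barcodes were shared with a member of another library, while the whole libraries shared 19 (BT mutant and BT WT), 8 (BT mutant and PBS) and 12 (BT WT and PBS) barcodes.

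Set against the Aqp8-side colonocytes of the same library, members held more transcripts of nuclear-encoded respiratory chain genes and fewer of the nuclear RNAs Malat1 and Neat1. Both classes come from the same libraries and the rule split them on 8 genes, so this contrast is a description. Of 6725 genes tested, 157 (2.33%) were at least 1.5-fold higher in members in all 3 libraries and 170 (2.53%) at least 1.5-fold lower. On the log2 scale of CPM plus 10, the median over genes was 0.02 in BT mutant, 0.07 in BT WT and 0.04 in PBS. The classes also differed in depth. The median member was deeper than the median Aqp8-side colonocyte in BT mutant and BT WT and shallower in PBS. The part of depth in this contrast was not tested.

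Among 35 nuclear-encoded genes of the respiratory chain, the machine that turns fuel into a proton gradient, 13 were at least 1.5-fold higher in all 3 libraries and 0 lower, with a median log2 ratio of 1.04. Of the 13 chain genes encoded in mitochondria themselves, 0 passed in either direction and the median was -0.35. Cox6c, a subunit of cytochrome c oxidase named after its values were seen, had 4154 CPM in BT mutant members against 1573 CPM in their Aqp8-side neighbours, 3052 against 1088 CPM in BT WT, and 4417 against 2942 CPM in PBS. Atp5g1, a subunit of the ATP synthase rotor, had 953 against 298 CPM in BT mutant, 797 against 254 CPM in BT WT, and 908 against 535 CPM in PBS. Ndufab1, a subunit of complex I, had a median log2 ratio of 1.45. Since the 2 classes differ in mitochondrial UMIs, the contrast was repeated at a mitochondrial limit of 10%: the list's median was then 0.61, with 6 of 35 genes higher in all 3 libraries. Fatty acid oxidation genes had a median of 0.80 (3 of 28 higher) at the 25% limit and 0.31 (0 higher, 1 lower) at 10%. The butyrate and ketogenesis list had a median of 0.74 at the 25% limit and 0.20 at 10%, so the size of these differences depended on that limit.

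The genes with the highest median ratio came from several pathways. Atpif1, the inhibitor of ATP synthase, had 957 CPM in BT mutant members against 214 CPM in Aqp8-side cells, 625 against 169 CPM in BT WT, and 1018 against 500 CPM in PBS. Hsd11b2, the enzyme that inactivates corticosterone and so guards the mineralocorticoid receptor, had 171 against 29.2 CPM in BT mutant, 181 against 43.9 CPM in BT WT, and 107 against 45.4 CPM in PBS. Hao2, a peroxisomal hydroxy acid oxidase, had 331 against 79.4 CPM in BT mutant, 678 against 160 CPM in BT WT, and 247 against 141 CPM in PBS. In these 3 genes the PBS library had the smallest ratio. Car2, a second cytosolic carbonic anhydrase that no clause used, had 873 against 313 CPM in BT mutant, 1461 against 431 CPM in BT WT, and 1349 against 574 CPM in PBS, ratios of 2.79, 3.39 and 2.35. Among the other carbonic anhydrases, Car9, Car12 and Car13 had at most 60.2, 33.4 and 21.9 CPM in the members of any library. Tstd1, Nme2 and Phlda1 completed the 8 highest by median ratio.

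Krt8, the partner keratin of simple epithelia, had 7850 CPM in BT mutant members against 3722 CPM in Aqp8-side cells, 5874 against 2508 CPM in BT WT, and 4122 against 3164 CPM in PBS. Of 3 tested keratins 0 passed 1.5-fold in all 3 libraries, with a median log2 ratio of 1.07. Malat1, a long noncoding RNA retained in the nucleus, had 11239 CPM in BT mutant members against 49526 CPM in Aqp8-side cells, 15675 against 67852 CPM in BT WT, and 40164 against 69029 CPM in PBS. Neat1, the RNA of paraspeckles, had a median log2 ratio of -2.47. PBS members thus stood closest to their neighbours in both nuclear RNAs. Vegfa, the growth factor of blood vessels, had a median log2 ratio of -2.09 and Selenop, a secreted selenium carrier, of -1.47. Of 17 interferon-stimulated genes, 5 were lower in members in all 3 libraries and 0 higher (median -0.45).

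**Figure D3:**
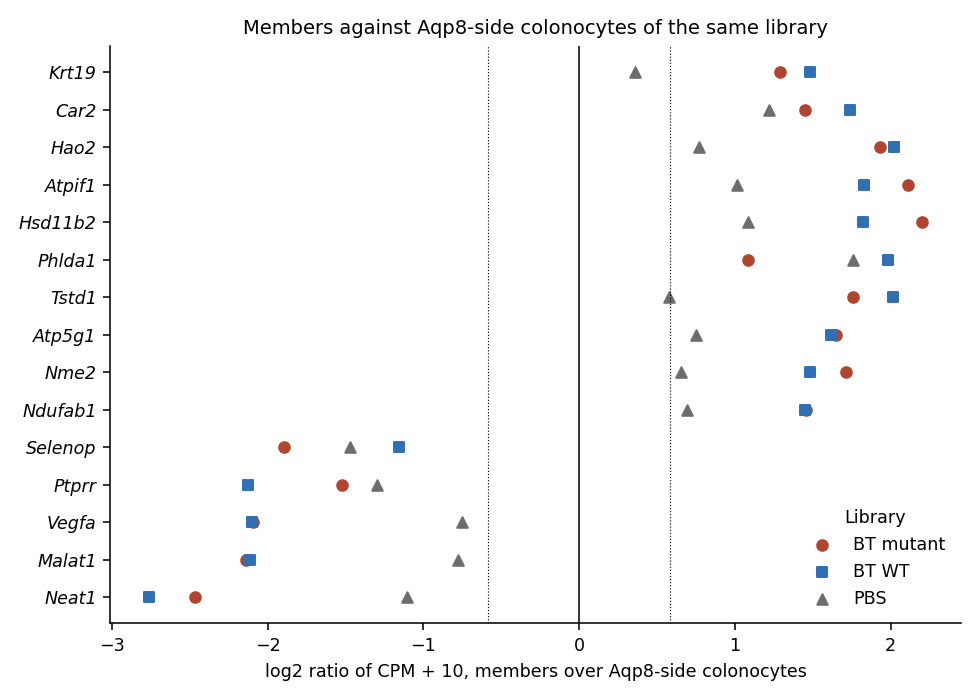
Log2 ratio of CPM plus 10 in members over Aqp8-side colonocytes of the same library for Krt19, Car2 and the named genes, 1 symbol per library; dotted lines mark 1.5-fold. Hsd11b2 and Atpif1 lie above 1 in all 3 libraries, and PBS ratios are the nearest to 0 for most genes.

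Among the 296 BT mutant members, levels of many genes shifted with the strength of dominance. The cells were divided by the Car1 plus Fabp2 share of the UMIs counted in the clause, into 79 cells at 0.5 to under 0.6, 84 at 0.6 to under 0.7, 60 at 0.7 to under 0.8 and 73 at 0.8 and over. Krt19 had 3419, 4144, 4722 and 6174 CPM over these bins, and its partner Krt8 6977, 7109, 8669 and 8937 CPM. Aqp4, a water channel of basolateral membranes, had 412 CPM in the most dominant bin and 154 CPM in the least dominant one. Gsta1, a glutathione transferase that conjugates toxins, had 47.0, 70.0, 113 and 178 CPM; its reads may be shared with the near-identical Gsta2 and Gm3776. Other genes ran the other way. Saa1, an acute-phase protein, had 4578, 4241, 2264 and 1367 CPM, and Car4, a membrane-bound carbonic anhydrase of the brush border, 1227, 1109, 796 and 529 CPM, both being among the rule's colonocyte genes. Hoxb13, a posterior Hox gene of the distal colon, had 83.6, 65.3, 40.6 and 29.7 CPM, and Tgm3, a transglutaminase, had 98.3 CPM in the most dominant bin and 522 CPM in the least. Slc15a1, the peptide transporter, had 17.3 CPM in the most dominant bin and 102 CPM in the least. The median mitochondrial share was 10.7%, 11.7%, 8.66% and 8.77% over the bins, and its part was not tested.

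**Figure D4:**
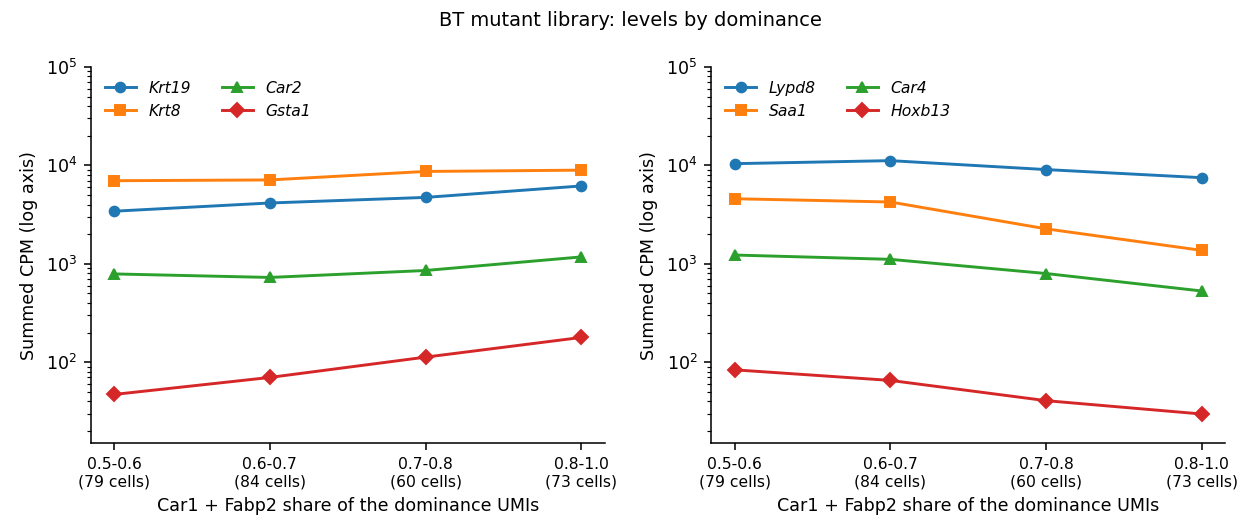
Summed level (CPM, log axes) of 8 genes in BT mutant members binned by the Car1 plus Fabp2 share of the UMIs counted in the dominance clause, from least to most dominant. Krt19, Krt8, Car2 and Gsta1 are highest in the last bin and Saa1, Car4, Hoxb13 and Lypd8 are lowest there.

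The balance of the 2 naming genes divided BT mutant members along another line. Fabp2 exceeded Car1 in 43 cells, Car1 was at least 9 times Fabp2 in 22 cells, and 231 cells lay between. Car2 had 351 CPM in the Fabp2-led cells and 1367 CPM in the Car1-led cells, and Aqp4 had 21.3 against 283 CPM. Lower levels in the Fabp2-led cells were also found for Hao2 (103 against 468 CPM), Tgm3 (184 against 812 CPM) and Pigr, the receptor that carries IgA across the epithelium (312 against 750 CPM). Genes with more transcripts in the Fabp2-led cells included Gcnt3, an enzyme of mucin glycan branching (308 against 71.9 CPM), Ly6m, a membrane-anchored Ly6 protein (684 against 206 CPM), and Krt18 (772 against 298 CPM). These genes were chosen after their values were seen, by ratio. In BT WT members 14 cells were Car1-led, 13 lay between and 2 were Fabp2-led, and in PBS members the numbers were 56, 22 and 6. The median PBS member held 6 Car1 UMIs and 1 Fabp2 UMI, and 39 of 84 held no Fabp2 UMI. In such shallow cells the split rests on few UMIs.

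In BT WT members against PBS members, genes of glutathione and drug handling were lower, and keratins, a few transporters and several tight junction genes were higher. Of 6627 genes with a mean of at least 10 CPM, 1325 (20.0%) were at least 1.5-fold higher and 431 (6.50%) at least 1.5-fold lower, 26.5% in all; the median over genes was 0.20 on the log2 scale. Scaled by median-ratio size factors, which shifted these ratios by -0.24, the split was 719 higher and 749 lower. The BT WT values rest on 29 cells.

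Of 30 glutathione and antioxidant genes tested, 24 were lower in BT WT members and 1, Gpx1, higher, with a median log2 ratio of -1.36. Gsta1 had 31.9 CPM in BT WT members and 1426 CPM in PBS members, 44.7-fold lower (28.2 to 75.7), while lymphocyte barcodes had 1.79 and 48.9 CPM. Every deep PBS member had Gsta1, from 247 to 4545 CPM, whereas 12 of 19 deep BT WT members had none and the highest had 145 CPM, so the cells did not overlap. Gm3776, a near-identical copy, had 0 UMIs in BT WT members and 351 CPM in PBS members, at least 66.0-fold lower with the BT WT sum set to 3 UMIs. Gclc, the catalytic subunit of the rate-limiting enzyme of glutathione synthesis, had 95.7 CPM in BT WT members and 1535 CPM in PBS members, 16.0-fold lower (12.3 to 21.4). Its partner subunit Gclm had 108 CPM in BT WT members and 781 CPM in PBS members, and Nqo1, a quinone reductase, 8.86 against 218 CPM, both named after their values were seen. Prdx6, a peroxiredoxin and the list's most abundant member, had 3440 CPM in BT WT members and 6195 CPM in PBS members (log2 ratio -0.85), but its ratio turned to 0.27 at a mitochondrial limit of 10% and to 0.0091 with equal weight per cell.

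Of 36 xenobiotic genes 16 were lower in BT WT members and 4 higher. Cbr3, a carbonyl reductase, had 53.1 CPM in BT WT members and 1080 CPM in PBS members, 20.3-fold lower (14.2 to 30.2). Deep PBS members ranged from 179 to 2344 CPM of Cbr3 and deep BT WT members from 0 to 232 CPM, with a small overlap. Ces1g, a carboxylesterase with close relatives whose reads may be shared, had 7.09 CPM in BT WT members and 321 CPM in PBS members. Abcb1a, the drug efflux pump of the apical membrane, had 1244 CPM in BT WT members and 2031 CPM in PBS members. Sult1a1, a sulfotransferase named after its values were seen, went against the list, with 90.3 CPM in BT WT members and 6.32 CPM in PBS members.

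Some genes of amino acid uptake and lipid handling were lower in BT WT members too. Slc6a19, the main transporter of neutral amino acids, had 10.6 CPM in BT WT members and 342 CPM in PBS members, 32.2-fold lower (14.7 to 88.2). Apoc2, the activator of lipoprotein lipase, had 33.7 CPM in BT WT members and 762 CPM in PBS members, of which 32.3% came from 1 PBS cell. Rbp2, a carrier of retinol inside absorptive cells, had 58.5 CPM in BT WT members and 631 CPM in PBS members. Other transporters were higher. Slc6a14, a broad amino acid transporter, had 599 CPM in BT WT members and 79.0 CPM in PBS members, 7.58-fold higher (6.04 to 9.57). Aqp4 had 250 CPM in BT WT members, 41.1% of it from 1 cell, and 15.8 CPM in PBS members. Its level in lymphocyte barcodes was 35.9 CPM in BT WT and 65.8 CPM in PBS, so PBS members lay under the PBS lymphocyte barcodes. Slc37a2, a sugar-phosphate exchanger, had 246 CPM in BT WT members and 37.9 CPM in PBS members. Of 154 CPM of Fxyd4, a modulator of the sodium pump, in BT WT members 73.6% came from 1 cell, and PBS members had 22.9 CPM.

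Keratins of simple epithelia were higher in BT WT members, with 2 of 3 past 1.5-fold. Krt18 had 381 CPM in BT WT members and 83.8 CPM in PBS members, 4.55-fold higher (3.59 to 5.79). Lymphocyte barcodes had 141 CPM in BT WT and 195 CPM in PBS, so PBS members did not exceed the PBS lymphocyte barcodes. Krt19 was 1.84-fold higher (1.73 to 1.95) and Krt8 1.43-fold (1.36 to 1.49). Of 12 interferon-stimulated genes 8 were higher and 0 lower, of 22 tight junction genes 8 and 0, of 21 unfolded protein response genes 6 and 0, and of 32 epithelial transcription factors 14 and 4. These counts are to be read against the 20.0% of all genes that were higher. Over the alternatives the list median ran from 0.019 to 1.63 for the interferon list (0.78 as given), 0.0052 to 0.51 for the unfolded protein response (0.45) and 0.29 to 0.64 for tight junction genes (0.50). Ifi27l2b, the most abundant of the interferon list, had 232 CPM in BT WT members and 126 CPM in PBS members. Cldn4, a claudin of the tight junction, had 60.2 CPM in BT WT members and 11.9 CPM in PBS members, and Calr, a chaperone of the endoplasmic reticulum, 563 against 244 CPM. Apol10a, an apolipoprotein L family member, had 347 CPM in BT WT members, 32.7% of it from 1 cell, and 20.5 CPM in PBS members, 16.9-fold higher (11.2 to 26.5). Gsdmc4, a gasdermin, had 108 CPM in BT WT members and 3.95 CPM in PBS members, where 5 UMIs were counted. Edn1, the vasoactive peptide endothelin, had 817 CPM in BT WT members and 157 CPM in PBS members. Over the other cell filters, scalings and weightings that were run, the log2 ratio of BT WT over PBS ran from -6.99 to -4.48 for Gsta1, -4.91 to -3.85 for Gclc, 2.55 to 3.34 for Slc6a14 and 1.10 to 2.17 for Krt18. Further ranges were those of Cldn4 (0.088 to 2.25), Gsdmc4 (1.56 to 4.46), Apol10a (1.87 to 4.91), Aqp4 (1.75 to 3.90), Slc37a2 (2.01 to 5.25), Fxyd4 (1.71 to 4.47), Ces1g (-5.31 to -1.83), Slc6a19 (-5.25 to -1.76), Cbr3 (-6.42 to -3.84) and Rbp2 (-3.67 to -1.75).

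BT mutant members against PBS members, the pair with the most cells, again had lower levels of antioxidant and drug-handling genes and higher levels of keratins; this comparison shares its PBS library with the one before, so the 2 are not independent. At least 1.5-fold higher were 692 of 6627 genes (10.4%) and at least 1.5-fold lower 376 (5.67%), 16.1% in all, with a median over genes of 0.10. Under median-ratio scaling, a shift of -0.13, the split was 489 higher and 497 lower. Of 30 glutathione and antioxidant genes 22 were lower and 1 higher (median -1.33), and of 36 xenobiotic genes 20 were lower and 2 higher (median -0.62). Gsta1 had 98.1 CPM in BT mutant members and 1426 CPM in PBS members, 14.5-fold lower (13.2 to 16.0). Gclc had 95.7 CPM in BT mutant members and 1535 CPM in PBS members, 16.0-fold lower (14.6 to 17.7), and the median deep cell had 76.0 CPM in BT mutant against 1533 CPM in PBS. Cbr3 had 51.8 CPM in BT mutant members and 1080 CPM in PBS members, 20.8-fold lower (18.3 to 23.8). The Aqp8-side colonocytes had 17.9 CPM of Cbr3 in BT mutant, 16.7 CPM in BT WT and 693 CPM in PBS, and for Gsta1 8.50, 3.52 and 1000.5 CPM in BT mutant, BT WT and PBS.

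Slc6a19 had 4.24 CPM in BT mutant members and 342 CPM in PBS members, 80.7-fold lower (53.1 to 129). Atp12a, the proton-potassium pump of the colon, had 6.27 CPM in BT mutant members and 684 CPM in PBS members, 109-fold lower (77.4 to 158). It was absent from 197 of 216 deep BT mutant members and from 5 of 32 deep PBS members. Car1-led cells, 7.43% of BT mutant members and 66.7% of PBS members, had 82.2 CPM of Atp12a in BT mutant and 819 CPM in PBS. Cells with Car1 1 to 9 times Fabp2 had 3.64 and 293 CPM. The part of this make-up in the summed ratio was not tested. Slc40a1, the iron exporter ferroportin, had 105 CPM in BT mutant members and 866 CPM in PBS members, 8.23-fold lower (7.43 to 9.12), and Fth1, the ferritin heavy chain, had 5807 CPM in BT mutant members and 10966 CPM in PBS members (log2 ratio -0.92, and from -1.20 to -0.092 over the alternatives). Of 12 genes of metallothioneins and metal transport 7 were lower and 0 higher (median -0.81). Sord, which turns sorbitol into fructose, had 14.2 CPM in BT mutant members and 262 CPM in PBS members, 18.4-fold lower (14.3 to 23.9). Over all genes tested, 10.4% were higher and 5.67% lower in this comparison. Of 15 genes of MHC class I and the immunoproteasome 3 were higher and 2 lower, with a median of 0.33 that ran from -0.29 to 0.36 over the alternatives. H2-K1, an MHC class I chain and one of the lower ones, had 626 CPM in BT mutant members and 1809 CPM in PBS members, and lymphocyte barcodes had 889 and 1025 CPM.

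Higher in BT mutant members were all 3 tested keratins (median log2 ratio 1.33). Krt18 had 541 CPM in BT mutant members and 83.8 CPM in PBS members, 6.46-fold higher (5.32 to 7.91), and Krt19 was 2.52-fold higher (2.41 to 2.63). The median deep cell had 449 CPM of Krt18 in BT mutant against 61.5 CPM in PBS. Sptssb, a subunit of the enzyme that starts sphingolipid synthesis, had 159 CPM in BT mutant members and 14.2 CPM in PBS members, 11.2-fold higher (7.04 to 19.0). Apol10a had 310 CPM in BT mutant members and 20.5 CPM in PBS members, 15.1-fold higher (10.3 to 23.2), with the largest cell giving 2.61% of the BT mutant UMIs and 61.5% of the 26 PBS UMIs. Slc6a14 had 570 CPM in BT mutant members and 79.0 CPM in PBS members, 7.22-fold higher (5.91 to 8.90). Aqp4 had 233 CPM in BT mutant members and 15.8 CPM in PBS members, and 101 of 216 deep BT mutant cells had no Aqp4 UMI, at a median level of 32.4 CPM. Smim6, which encodes a small membrane protein, had 168 CPM in BT mutant members and 27.7 CPM in PBS members, where lymphocyte barcodes had 57.3 and 42.2 CPM. Muc3a had 103 CPM in BT mutant members and 11.9 CPM in PBS members, and its reads may be divided with Muc3. Of 12 interferon-stimulated genes 5 were higher and 0 lower, of 22 tight junction genes 4 and 0, and of 21 unfolded protein response genes 0 and 0. These counts are to be read against the 10.4% of all genes that were higher. Over the alternatives the log2 ratio of BT mutant over PBS ran from -4.99 to -2.74 for Gsta1, -4.44 to -3.38 for Gclc, -6.56 to -4.34 for Atp12a, 1.62 to 3.06 for Krt18 and 2.21 to 4.92 for Slc6a14. It ran from -6.03 to -2.82 for Slc6a19, 2.38 to 5.08 for Apol10a, 2.14 to 4.26 for Aqp4, 2.73 to 4.26 for Sptssb and -4.15 to -1.95 for Sord, while the interferon list's median ran from -0.17 to 0.76 and so changed sign.

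**Figure D5:**
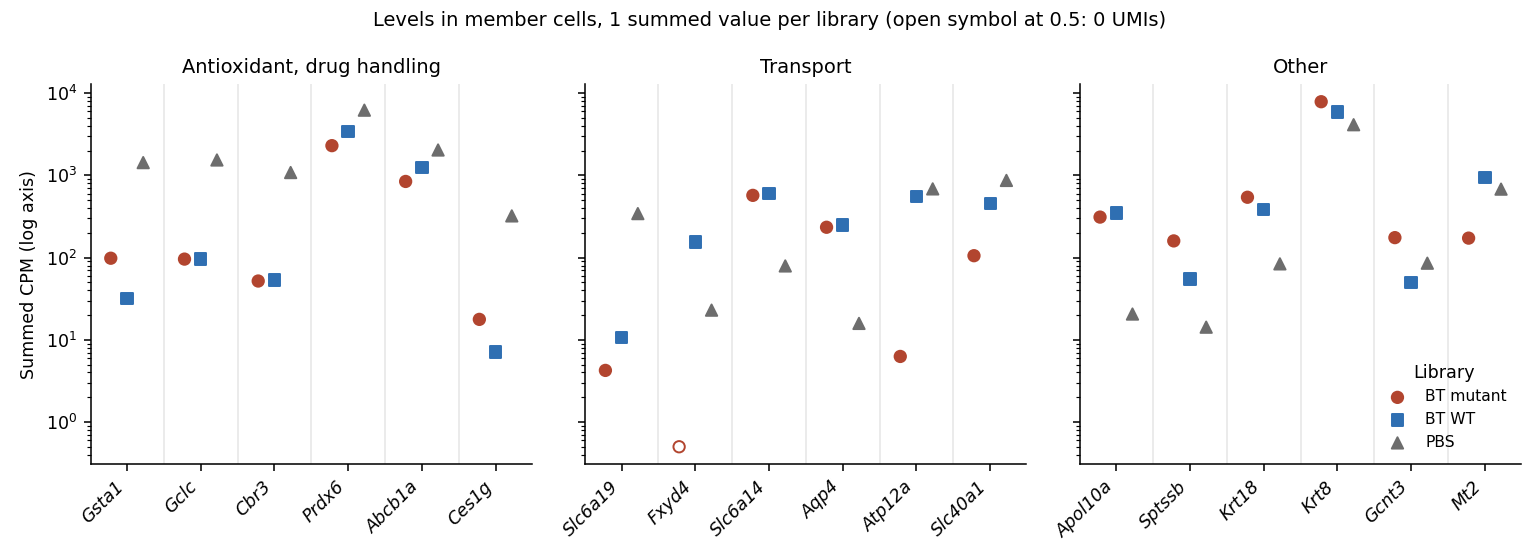
Summed level in members (CPM, log axes) of 18 genes, with 1 symbol per library; the open symbol at 0.5 stands for 0 UMIs. PBS lies highest for Gsta1, Gclc, Cbr3 and Slc6a19, both BT libraries lie above PBS for Slc6a14, Aqp4 and Krt18, and BT mutant lies lowest for Atp12a, Slc40a1 and Mt2.

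Between the colonizing strains, BT mutant members had lower levels of the proton-potassium pump gene Atp12a and of part of the metal transport and unfolded protein response lists than BT WT members. Here 291 of 6627 genes (4.39%) were at least 1.5-fold higher and 635 (9.58%) at least 1.5-fold lower, 14.0% in all, with a median of -0.10; under median-ratio scaling, a shift of 0.12, the split was 436 higher and 435 lower. Atp12a had 6.27 CPM in BT mutant members and 554 CPM in BT WT members, 88.4-fold lower (62.0 to 130). In the Aqp8-side colonocytes it had 179 CPM in BT mutant and 602 CPM in BT WT, against 471 CPM in PBS, and in lymphocyte barcodes 11.8 CPM in BT mutant, above the level in the members. Atp12a was highest in Car1-led cells, which were 7.43% of BT mutant members and 48.3% of BT WT members. These cells had 82.2 CPM in BT mutant and 1125 CPM in BT WT. Cells with Car1 1 to 9 times Fabp2 had 3.64 and 98.1 CPM. The summed ratio thus mixes level with the make-up of the members, and the part of each was not tested. Fxyd4 had 0 UMIs in BT mutant members and 154 CPM in BT WT members, at least 279-fold lower, with most BT WT UMIs in 1 cell. Slc37a2 had 9.77 CPM in BT mutant members and 246 CPM in BT WT members, 25.2-fold lower (18.2 to 35.3), and Sord 14.2 against 172 CPM, 12.1-fold lower (8.88 to 16.5). Adh1, an alcohol dehydrogenase that also acts on retinol, had 33.2 CPM in BT mutant members and 271 CPM in BT WT members, 8.17-fold lower (6.54 to 10.2). Cyp2d12, a cytochrome P450 with close relatives, had 24.2 CPM in BT mutant members and 140 CPM in BT WT members.

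Of 12 genes of metallothioneins and metal transport 6 were lower in BT mutant members and 1 higher (median -0.54). Mt2, a metallothionein that binds zinc and copper, had 172 CPM in BT mutant members and 939 CPM in BT WT members, 5.45-fold lower (4.89 to 6.07); lymphocyte barcodes of BT mutant had 159 CPM. The close copy Mt1, named after its values were seen, had 2658 CPM in BT mutant members and 4662 CPM in BT WT members. Both gaps lay in Car1-led cells, which were 7.43% of BT mutant members and 48.3% of BT WT members. There Mt2 had 144 CPM in BT mutant and 1898 CPM in BT WT, and Mt1 1937 and 7900 CPM. With Car1 1 to 9 times Fabp2, Mt2 had 181 CPM in BT mutant and 172 CPM in BT WT, and Mt1 2825 and 2116 CPM. The part of this make-up in the summed ratios was not tested. Slc40a1 had 105 CPM in BT mutant members and 450 CPM in BT WT members, 4.27-fold lower (3.67 to 4.96), and Tfrc, the transferrin receptor, went the other way with 93.3 against 31.9 CPM, the BT WT value resting on 18 UMIs. Of 21 unfolded protein response genes 9 were lower and 0 higher (median -0.48), among them Calr with 226 CPM in BT mutant members and 563 CPM in BT WT members and Hspa5, the main chaperone of the endoplasmic reticulum, with 238 against 487 CPM. Of 12 amino acid and peptide transporters 6 were lower and 1 higher (median -0.64). Tgm3 had 335 CPM in BT mutant members and 1559 CPM in BT WT members, 4.65-fold lower (4.29 to 5.04), and all 19 deep BT WT members had it, from 440 to 4639 CPM. Hoxb13 had 56.4 CPM in BT mutant members and 213 CPM in BT WT members, 3.77-fold lower (3.02 to 4.67), Hk2, a hexokinase, 219 against 721 CPM, and Pigr 493 against 1174 CPM.

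Higher in BT mutant members than in BT WT members were Phgr1, an abundant gene of gut epithelium, with 11378 CPM in BT mutant members and 4370 CPM in BT WT members, 2.60-fold higher (2.50 to 2.71). Ly6m had 389 CPM in BT mutant members and 76.2 CPM in BT WT members, 5.11-fold higher (3.78 to 7.09), with 48.8% of the BT WT UMIs in 1 cell. Mal, a protein of apical membrane traffic, had 159 CPM in BT mutant members and 35.4 CPM in BT WT members, 4.48-fold higher (2.88 to 7.37). Gcnt3 had 175 CPM in BT mutant members and 49.6 CPM in BT WT members, 3.52-fold higher (2.42 to 5.33), and Sptssb 159 against 54.9 CPM. Eno1, a glycolytic enolase, and Ndrg1, a gene known for its response to low oxygen, were 2.45-fold and 2.39-fold higher, and PBS members, with 280 and 212 CPM, stood beside BT mutant members, with 287 and 224 CPM. Cyp2c55, a cytochrome P450 of the colon, had 889 CPM in BT mutant members and 377 CPM in BT WT members, 2.36-fold higher (2.05 to 2.71). Of the 30 glutathione genes 6 were higher and 2 lower (median -0.02), and Gsta1 had 98.1 CPM in BT mutant members and 31.9 CPM in BT WT members. Over the alternatives the log2 ratio of BT mutant over BT WT ran from -6.26 to -4.85 for Atp12a, -2.95 to -1.62 for Mt2, -2.77 to -2.07 for Tgm3, 1.47 to 3.75 for Ly6m and 1.16 to 1.59 for Phgr1. It ran from -7.28 to -2.06 for Fxyd4, -3.51 to -1.54 for Sord, 1.88 to 3.82 for Mal and 1.61 to 4.01 for Gcnt3, and the metal list's median from -0.68 to -0.088. Guca2a, the hormone guanylin that sets salt and water secretion, had 6770 CPM in BT mutant members, 6086 CPM in BT WT members and 6028 CPM in PBS members.

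Malat1 moved with these groups. Its level was 11239 CPM in BT mutant members, 15675 CPM in BT WT members and 40164 CPM in PBS members, and the members' median depth was lowest in PBS. The deepest PBS members carried most of it, with 40721 CPM in the 32 cells of at least 1000 genes and 24706 CPM in the 52 shallower ones. The part of Malat1-rich cells in the differences from PBS was not tested.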

How the data were processed

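The study profiled the colon of germ-free mice with the Chromium 3' v3 kit, per the labels' protocols, as 1 library for each of 3 groups. The authors deposited raw UMI counts, whole numbers for each gene in each barcode. They were made with Cell Ranger 5.0.0, per the file headers, and STAR and mm10 are listed in the submitters' processing notes. How barcodes were called, and whether doublets were removed before deposit, is a step not given in the sources used here; no doublet caller was run.

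From these counts the rule selected members. Their UMIs were added up within each library and scaled to CPM. Ratios use log2 of CPM + 10, a gene counts as higher or lower from 1.5-fold, and genes with a mean of at least 10 CPM entered (6627 between libraries). Folds use CPM with nothing added. A fold against 0 UMIs used a floor of 3 UMIs per summed library. Lymphocyte barcodes had at least 5 UMIs of the 4 lymphocyte genes and under 2% from colonocyte genes. The text names, per comparison and direction, the 8 genes of largest ratio that in the higher library had at least 50 UMIs, 100 CPM and 2 times the lymphocyte level, and whose interval left out 1; the 8 per direction over Aqp8-side colonocytes; from each list the most abundant member and the one with the largest ratio; and the markers, rule genes, carbonic anhydrases and keratins. The members, the 50 gene lists and the comparisons were chosen with earlier results of these data known. A few genes that met the naming rule are not reported here. With 1 library per group no test was run. Alternatives were 13 planned settings and 1 added later. Calculations used Python 3.11.15, numpy 2.4.6, scipy 1.17.1 and pandas 2.3.3, and the intervals were checked on simulated counts.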

Additional observations from a re-analysis of the deposited data

Results flagged for a closer look

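Chgb, a granin of enteroendocrine cells, had a log2 ratio of BT WT over PBS of 2.13 in members (44.3 CPM in BT WT, 2.37 CPM in PBS) and of -3.10 in Aqp8-side colonocytes (1.34 CPM in BT WT, 87.1 CPM in PBS), opposite signs in the 2 classes; all 25 BT WT member UMIs came from 1 cell. Prkg2, a cGMP-dependent kinase, had a ratio of BT WT over PBS of 1.23 in members (28.3 CPM in BT WT, 6.32 CPM in PBS) and -1.12 in Aqp8-side colonocytes (3.77 CPM in BT WT, 20.0 CPM in PBS). Ly6g, a gene of the Ly6 family known from neutrophils, had a ratio of BT mutant over PBS of -1.13 in members (18.1 CPM in BT mutant, 51.4 CPM in PBS) and 1.18 in Aqp8-side colonocytes (120 CPM in BT mutant, 47.2 CPM in PBS). In each case the difference was not tested.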

How the results depend on the processing

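No paired analysis was possible because each group is 1 library. The share of members among colonocytes moved with the cell filters. In BT mutant it was 52.4% at a mitochondrial limit of 10%, 13.9% with no mitochondrial limit, 20.8% with colonocyte genes at 5% or more, 9.42% with dominance of at least 2 times, and 8.54% without members holding a UMI of another lineage. In BT WT it was 9.35% at the 10% mitochondrial limit, 3.13% at the 5% colonocyte limit, 0.371% with the stricter dominance and 0.854% without members holding other-lineage UMIs. In PBS it was 20.5% at the 10% mitochondrial limit, 9.65% with none, 9.97% with at least 1000 genes, 7.81% at the 5% colonocyte limit, 6.11% with the stricter dominance, 5.78% without members holding other-lineage UMIs and 9.97% with at least 10 Car1 and Fabp2 UMIs, the setting chosen after seeing the data. The other-lineage setting left out members only and kept every Aqp8-side cell, so under it the share could only fall. BT WT had the lowest share under each of these settings.

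Counts of genes past 1.5-fold also depended on the processing. For BT WT over PBS they were 2149 higher and 1582 lower at the 10% mitochondrial limit, 2025 and 975 without cells holding other-lineage UMIs, 719 and 749 with median-ratio scaling, 2284 and 1544 with equal weight per cell, 2778 and 2069 after thinning to 1000 UMIs, and 482 and 202 with a mean of at least 50 CPM. For BT mutant over BT WT they were 1194 and 1620 at the 10% limit, 802 and 961 without other-lineage UMIs, 1242 and 1423 with equal weight, 2189 and 2250 thinned, 533 and 1125 with a pseudocount of 1, and 123 and 216 at 50 CPM. For BT mutant over PBS they were 1735 and 1380 at the 10% limit, 1830 and 980 at the 5% colonocyte limit, 1748 and 756 without other-lineage UMIs, 1999 and 1317 with equal weight, 2047 and 1264 thinned, and 368 and 202 at 50 CPM, with 565 lower under stricter dominance and 1194 higher with a pseudocount of 1. Members over Aqp8-side colonocytes gave 98 higher and 256 lower in all 3 libraries at the 10% limit, and 421 higher with no mitochondrial limit.

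Some log2 ratios changed sign. For BT WT over PBS these were, at the 10% mitochondrial limit, Atpif1 (0.0075), Prdx6 (0.27), Slc40a1 (0.58) and Sptssb (-0.089), without other-lineage UMIs Hspa5 (-0.28), with equal weight Prdx6 (0.0091) and Smim6 (-0.052), and thinned Slc40a1 (0.52) and Smim6 (-0.54). For BT mutant over BT WT they were Chgb (0.19 at the 10% limit, 0.0089 with no limit) and Ces1g (-1.02 thinned). For BT mutant over PBS they were, at the 10% limit, Ly6g (0.51), Slc37a2 (0.51) and Tgm3 (0.10), at the 5% colonocyte limit Ly6g (0.19) and Ly6m (-0.64), with stricter dominance Hsd11b2 (-0.14), Ly6m (-0.013) and Pigr (0.088), without other-lineage UMIs Car2 (0.20), Ly6m (-1.42) and Slc37a2 (0.12), with equal weight Ly6m (-0.40), and thinned Cldn4 (-0.23) and Hoxb13 (0.64). The cause was not tested. The 5% colonocyte limit and the stricter dominance were not run for either comparison with BT WT, nor for members over Aqp8-side colonocytes, since they left 1 and 7 BT WT members. Thinning to 1000 UMIs left out 37 BT mutant, 5 BT WT and 38 PBS members. The 29 BT WT members and the shallow PBS members limit the depth behind every comparison, and 1 library per group means that treatment, animal and preparation cannot be told apart.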

Other observations

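Single transcription factors of the gut epithelium and subunits of the immunoproteasome, which trims peptides for MHC class I, are given here, chosen after their values were seen. Of 32 epithelial transcription factors 9 were higher and 2 lower in BT mutant members than in PBS members. Over all genes tested, 10.4% were higher and 5.67% lower. The 2 lower factors are not among those shown here. Elf3, an epithelial ETS factor, had 297 CPM in BT mutant members, 416 CPM in BT WT members and 179 CPM in PBS members, and Cdx1, an intestinal homeobox factor, 154, 181 and 99.6 CPM in BT mutant, BT WT and PBS members. Elf3 and Cdx1 thus each had both BT libraries above PBS. With 10 CPM added, Cdx1 in BT mutant members stayed just under the 1.5-fold call.

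Of 15 genes of MHC class I and the immunoproteasome 4 were higher and 1 lower in BT WT members than in PBS members, and 3 higher and 2 lower in BT mutant members than in PBS members. Over all genes tested, 20.0% were higher and 6.50% lower in BT WT over PBS. For BT mutant over PBS these shares were 10.4% and 5.67%. Psmb10, an immunoproteasome subunit, had 141 CPM in BT mutant members, 138 CPM in BT WT members and 48.2 CPM in PBS members, and its lymphocyte barcodes had 103, 88.1 and 53.5 CPM in BT mutant, BT WT and PBS. Psmb8, another subunit, had 16.8 CPM in BT mutant members, 44.3 CPM in BT WT members and 3.95 CPM in PBS members, far under the 330, 284 and 183 CPM of the lymphocyte barcodes of BT mutant, BT WT and PBS. Sycn, a secretory granule protein, had 1150 CPM in BT mutant members, 1157 CPM in BT WT members and 2184 CPM in PBS members, and 26.3% of the PBS UMIs came from 1 cell.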
